A study of Mus musculus with 8 samples.

Results

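The bile acid transport and farnesoid X receptor (FXR) genes were followed in the jejunal mucosa of mice that lack the short-chain fatty acid receptor FFA2 in adipocytes. The set was given as 9 mouse gene symbols, and all 9 were matched among the 56980 gene identifiers of the count data: Slc10a2, Fabp6, Slc51a, Slc51b, Nr1h4, Nr0b2, Fgf15, Abcc2 and Abcc3. RNA sequencing was performed on 4 FFA2 fl/fl mice and 4 Adipoq-F2-KO mice, 1 library per mouse. All were male, were 12 weeks old when the diet began, and received a Western diet with 10% fructooligosaccharides, a fermentable fiber, for 2 weeks at thermoneutrality. Both genotypes carried floxed Ffar2 alleles, and the Adipoq-F2-KO mice also carried Cre recombinase under the adiponectin promoter, which is active in adipocytes and not in the intestinal epithelium. Ffar2 had 2 to 18 counts per library in the FFA2 fl/fl mice and 3 to 13 in the Adipoq-F2-KO mice, which does not check a deletion that was made in another tissue.

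Bile acids are made from cholesterol in the liver, solubilise dietary fat in the small intestine and are largely recovered in the ileum. There the apical carrier SLC10A2 takes them into the enterocyte, FABP6 binds them in the cytosol, and the 2 subunits of the basolateral carrier, SLC51A and SLC51B, release them to the portal blood. Within the cell, bile acids activate FXR, the nuclear receptor encoded by Nr1h4, which with its partner RXR induces Fabp6, Slc51a, Slc51b, Nr0b2 (the corepressor SHP) and Fgf15, a hormone that lowers bile acid synthesis in the liver. The pumps ABCC2 and ABCC3 export conjugated organic anions, among them some bile acids, at the apical and the basolateral membrane. The jejunum normally has far less of the ileal recovery system than the ileum.

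Total counts were 6007654 to 21712776 per library in the FFA2 fl/fl mice and 6102595 to 18155475 in the Adipoq-F2-KO mice. FFA2 fl/fl 3 and Adipoq-F2-KO 3 and 4 had fewer than 10000000 counts and are called the shallow libraries, and the other 5 are called deep. The division rests on depth alone and is not a group of the study. The 9 absorptive enterocyte markers summed to 639796 to 714274 normalized counts over the 8 libraries, the labelled tissue being rich in enterocyte RNA. Smooth muscle markers varied more, from 292 to 22756 in the FFA2 fl/fl mice and from 523 to 7810 in the Adipoq-F2-KO mice, with the maximum in FFA2 fl/fl 3. In a bulk sample, fewer cells of a type and less RNA per cell cannot be told apart.

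To show the regulatory sequence that the FXR target genes carry, the 250 bases before the RefSeq start of 7 of the 9 genes (assembly GRCm38.p6, all but Fgf15 and Abcc3) were searched for the inverted repeat to which FXR and RXR bind, AGGTCANTGACCT, which reads the same on both strands. Of its 12 fixed letters, 10 were found in each of 2 windows of Fabp6, and 9 in a window of Slc51a and of Slc51b. Among 32851 RefSeq promoters, 0.959% held a window with at least 10 matching letters, 0.0122% held 2 or more such windows, and 9.63% held one with at least 9. The other 4 genes had no window with 9 or more. Each window is given with the letters that match the repeat in capitals.
Fabp6, chr11:43601772-43601784 (minus strand, 222 bases before the start): AGGTgAaTGACCa
Fabp6, chr11:43601692-43601704 (minus strand, 142 bases before the start): AGGTgAaTaACCT
Slc51a, chr16:32487946-32487958 (minus strand, 79 bases before the start): AGGaCttTGtCCT
Slc51b, chr9:65422948-65422960 (minus strand, 187 bases before the start): gGGTCAtTcACCc

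The upstream sequence of Fabp6 is shown because this gene had the closest matches and, as described below, had most of its counts in the shallow libraries. It covers chr11:43601563-43601812 of GRCm38.p6 on the minus strand, and capitals mark both windows.
Fabp6 upstream: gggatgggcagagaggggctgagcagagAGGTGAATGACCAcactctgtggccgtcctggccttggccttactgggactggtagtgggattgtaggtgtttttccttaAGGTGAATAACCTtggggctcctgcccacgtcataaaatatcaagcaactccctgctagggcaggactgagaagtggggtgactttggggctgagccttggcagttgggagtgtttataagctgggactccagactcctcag

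The upstream sequence of Slc10a2 is shown beside it because its level moved with that of Fabp6. After its letters were seen, the same 7 genes were searched for the inverted repeat of HNF1, GTTAATNATTAAC, a factor known to act on Slc10a2. The sequence covers chr8:5105352-5105537 on the minus strand, the 186 bases of the searched stretch that lie before the GENCODE gene start, and capitals mark a window with 11 of 12 letters. At least 11 letters were found in 0.189% of promoters. Nr1h4 and Abcc2 each held a window with 10 letters, 40 and 75 bases before the start, a level that 1.24% of promoters reached, and the other 4 genes had no window with 9 or more. By the GENCODE annotation the windows of Nr1h4 and Abcc2, and that of Slc51b given above, lie at least in part within the gene, since the gene starts there upstream of the RefSeq start. A match is a description of letters and not evidence of binding.
Slc10a2 upstream: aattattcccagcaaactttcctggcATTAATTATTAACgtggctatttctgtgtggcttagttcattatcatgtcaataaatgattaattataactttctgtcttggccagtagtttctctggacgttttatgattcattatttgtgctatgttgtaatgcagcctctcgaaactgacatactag

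Of the 9 genes, 7 had at least 10 counts in at least 4 libraries and were tested with DESeq2 among 15986 genes. Fabp6 and Fgf15 reached 10 counts only in the 3 shallow libraries and in 2 of them. None of the 7 differed between genotypes at an adjusted p below 0.05, where 0.0375% of all tested genes did (6 genes), and none did by edgeR's quasi-likelihood test or limma-voom, adjusted or unadjusted. None had an unadjusted DESeq2 p below 0.05, against 3.03% of all tested genes, and none had genotypes that did not overlap, against 2.12%. With 7 genes, such shares would leave few or no genes to find, so the counts alone do not set these genes apart from the rest. The adjusted DESeq2 p was 0.9998 for each of the 7. Without FFA2 fl/fl 3, 3 of the 7 (Slc10a2, Slc51b and Nr0b2) had an unadjusted DESeq2 p below 0.05, against 8.14% of all tested genes (1302 genes). That library held the highest FFA2 fl/fl value of Slc10a2 and Slc51b and the lowest of Nr0b2. Leaving out any other single library gave 0 or 1 of the 7. The median log2 fold change of the 7 was -0.08, and that of all tested genes was -0.01.

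**Figure D1:**
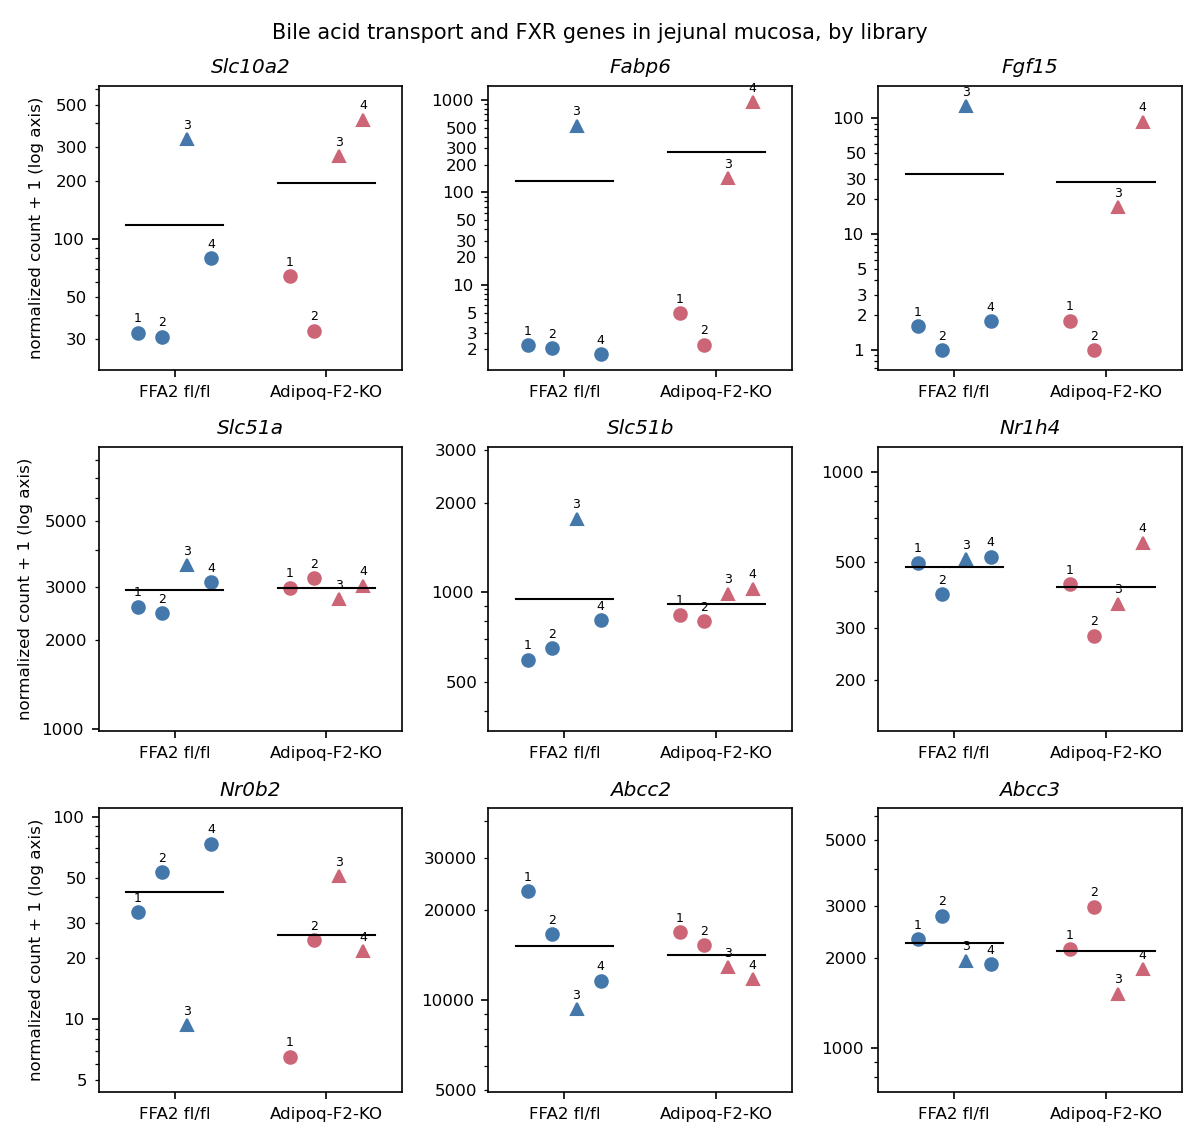
Each panel shows 1 gene, with the normalized count plus 1 in each library on a log axis, FFA2 fl/fl in blue and Adipoq-F2-KO in red, numbered by replicate. Triangles are the 3 shallow libraries, circles the 5 deep ones and black lines the group means. The genotypes overlap in all 9 panels, and in those of Slc10a2, Fabp6, Fgf15 and Slc51b all triangles lie above all circles.

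Uptake was followed through Slc10a2 (chr8:5083219-5105351, minus strand, GRCm38), the sodium-dependent apical carrier. Its normalized counts, which are counts divided by the library's size factor, were 31.5, 30.0, 330.4 and 78.2 in FFA2 fl/fl 1 to 4 and 63.2, 32.2, 268.3 and 415.5 in Adipoq-F2-KO 1 to 4. The 3 values above 250 came from the shallow libraries of both genotypes, and the deep libraries of the genotypes overlapped at 30.0 to 78.2. The means were 118 ± 144 and 195 ± 181 (SD, n = 4 each). The log2 fold change (Adipoq-F2-KO over FFA2 fl/fl) was 0.73 with a standard error of 1.06 and a 95% interval from -1.34 to 2.80, that is 0.396-fold to 6.97-fold. It was 2.06 without FFA2 fl/fl 3 (unadjusted p = 0.0306, DESeq2 adjusted p = 0.404), 0.04 without Adipoq-F2-KO 4 and 0.03 in the 5 deep libraries alone.

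Fabp6 (chr11:43596049-43601540, minus strand), the ileal bile acid binding protein, was close to absent in the deep libraries. Its raw counts were 2, 2, 250 and 1 in FFA2 fl/fl 1 to 4 and 5, 2, 70 and 501 in Adipoq-F2-KO 1 to 4. A library with 3 counts or fewer is not told from one without the transcript, which applied to 4 of the 5 deep libraries. The shallow libraries held 821 of 833 Fabp6 counts (98.6%) and 17.2% of all counts. After scaling, Fabp6 was 522.8 in FFA2 fl/fl 3 and 140.1 and 941.9 in Adipoq-F2-KO 3 and 4, and at most 3.95 in the deep libraries. Without the filter on low counts, its log2 fold change was 1.05 (SE 2.23, 95% interval -3.31 to 5.41, DESeq2 adjusted p = 1.0), a range too wide to give a direction.

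Fgf15 (chr7:144896531-144900953, plus strand), the hormone induced by FXR, had the lowest level of the set. There were 1, 0, 60 and 1 raw counts in FFA2 fl/fl 1 to 4 and 1, 0, 8 and 49 in Adipoq-F2-KO 1 to 4. The same 3 shallow libraries held 117 of the 120 counts (97.5%), and each of the 5 deep libraries was within the limit of 3 counts. FFA2 fl/fl 3 and Adipoq-F2-KO 4 were the 2 highest libraries for both Fgf15 and Fabp6. Without the filter its log2 fold change was -0.22 (SE 2.53), and DESeq2 gave no p, as it does for a gene with an outlying count. Fgf15 overlaps Gm26793 and Gm39119 on the opposite strand, which had 4 counts and 1 count in all.

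Slc51a (chr16:32474504-32487879, minus strand), the larger subunit of the basolateral carrier, had similar levels in every library. Its normalized counts were 2581, 2451, 3561 and 3125 in FFA2 fl/fl 1 to 4 and 2989, 3212, 2737 and 3036 in Adipoq-F2-KO 1 to 4. The highest library was 1.45 times the lowest, the smallest range of the 9 genes, and the Adipoq-F2-KO values lay within the FFA2 fl/fl range. Its log2 fold change was 0.03 (SE 0.14, 95% interval -0.23 to 0.30), so that the interval ran from 0.851-fold to 1.23-fold. Slc51a shares exonic sequence with Pcyt1a on the opposite strand, which had 35251 counts, and its counts are uncertain to that extent because the strand setting of the counting is not given in the sources used here.

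Slc51b (chr9:65412714-65422955, minus strand), the partner subunit, was higher in the shallow libraries of both genotypes than in the deep ones. It had 594.3, 649.4, 1763 and 804.1 normalized counts in FFA2 fl/fl 1 to 4 and 839.1, 798.5, 989.0 and 1026 in Adipoq-F2-KO 1 to 4. FFA2 fl/fl 3 was the highest library, Adipoq-F2-KO 4 and 3 came next, and all 3 were above the 5 deep libraries. The log2 fold change was -0.06 (SE 0.30, 95% interval -0.65 to 0.53). It became 0.42 when FFA2 fl/fl 3 was left out (unadjusted p = 0.00585, DESeq2 adjusted p = 0.211) and 0.26 in the 5 deep libraries alone. Slc51b overlaps Rasl12 on the opposite strand, which had 950 counts.

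Because both subunits are needed for a working carrier, their ratio was computed within each library, where it does not depend on scaling. The Slc51a to Slc51b count ratio was 4.34, 3.77, 2.02 and 3.89 in FFA2 fl/fl 1 to 4 and 3.56, 4.02, 2.77 and 2.96 in Adipoq-F2-KO 1 to 4. It was below 3 in all 3 shallow libraries and above 3.5 in all 5 deep ones. The log2 ratio was 1.75 ± 0.50 in the FFA2 fl/fl and 1.72 ± 0.25 in the Adipoq-F2-KO mice (SD, n = 4 each), a difference of -0.03 (two-sided exact permutation test, p = 0.886, adjusted p = 0.886 over 2 ratios). The smallest p this design allows is 0.0286.

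The receptor and its corepressor were then examined. Nr1h4 (chr10:89454234-89533585, minus strand) had 494.3, 387.4, 508.2 and 518.5 normalized counts in FFA2 fl/fl 1 to 4 and 418.4, 281.5, 360.4 and 577.2 in Adipoq-F2-KO 1 to 4. Adipoq-F2-KO mice held both the lowest and the highest value. The log2 fold change was -0.23 (SE 0.21, 95% interval -0.65 to 0.19). It was -0.43 without Adipoq-F2-KO 4 (unadjusted p = 0.0208, DESeq2 adjusted p = 0.99997) and -0.08 without Adipoq-F2-KO 2.

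Nr0b2 (chr4:133553376-133556536, plus strand), which encodes SHP, a corepressor without a DNA-binding domain, was scarce and varied widely. Its normalized counts were 32.7, 52.2, 8.36 and 72.7 in FFA2 fl/fl 1 to 4 and 5.53, 23.6, 50.1 and 20.7 in Adipoq-F2-KO 1 to 4, from 4 to 99 raw counts per library. FFA2 fl/fl 3 was the lowest FFA2 fl/fl library and Adipoq-F2-KO 3 the highest Adipoq-F2-KO library, both shallow, and they alone made the genotypes overlap. The log2 fold change was -0.79 (SE 0.65, 95% interval -2.06 to 0.48). In the 5 deep libraries the 2 Adipoq-F2-KO values lay below the 3 FFA2 fl/fl values, with a log2 fold change of -1.83 (unadjusted p = 0.00376, DESeq2 adjusted p = 0.243), whereas in the shallow libraries the 2 Adipoq-F2-KO values lay above the single FFA2 fl/fl value. Leaving out 1 library at a time moved it between -1.36 (without Adipoq-F2-KO 3) and -0.39 (without FFA2 fl/fl 4), and it was -0.45 without Adipoq-F2-KO 1. It was -1.13 without FFA2 fl/fl 3, and its unadjusted DESeq2 p was 0.0425 there and 0.0439 without Adipoq-F2-KO 3, with no adjusted p given in either.

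Abcc2 (chr19:43782192-43840740, plus strand), the apical conjugate pump, was the most abundant of the set. It had 23179, 16640, 9322 and 11613 normalized counts in FFA2 fl/fl 1 to 4 and 16908, 15268, 12918 and 11767 in Adipoq-F2-KO 1 to 4. The range was wider in FFA2 fl/fl mice, and all 4 Adipoq-F2-KO values lay inside it. Adipoq-F2-KO differed from FFA2 fl/fl by a log2 fold change of -0.10 (SE 0.25, 95% interval -0.59 to 0.40).

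Abcc3 (chr11:94343295-94392997, minus strand), the basolateral pump of the same family, had 2317, 2782, 1962 and 1915 normalized counts in FFA2 fl/fl 1 to 4 and 2144, 2986, 1520 and 1842 in Adipoq-F2-KO 1 to 4. Replicate 2 was the highest library in both genotypes. For this pump the log2 fold change was -0.08 (SE 0.21, 95% interval -0.49 to 0.33). The log2 ratio of Abcc2 to Abcc3 counts was 2.69 ± 0.45 in the FFA2 fl/fl and 2.77 ± 0.33 in the Adipoq-F2-KO mice (SD, n = 4 each), a difference of 0.09 (two-sided exact permutation test, p = 0.800, adjusted p = 0.886 over 2 ratios). A ratio of Fabp6 to Slc10a2 was not tested because Fabp6 was under 10 counts in 5 libraries. Its values were 1.58, 0.522 and 2.27 in FFA2 fl/fl 3 and Adipoq-F2-KO 3 and 4, and 0.0625 or less in the deep libraries.

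**Figure D2:**
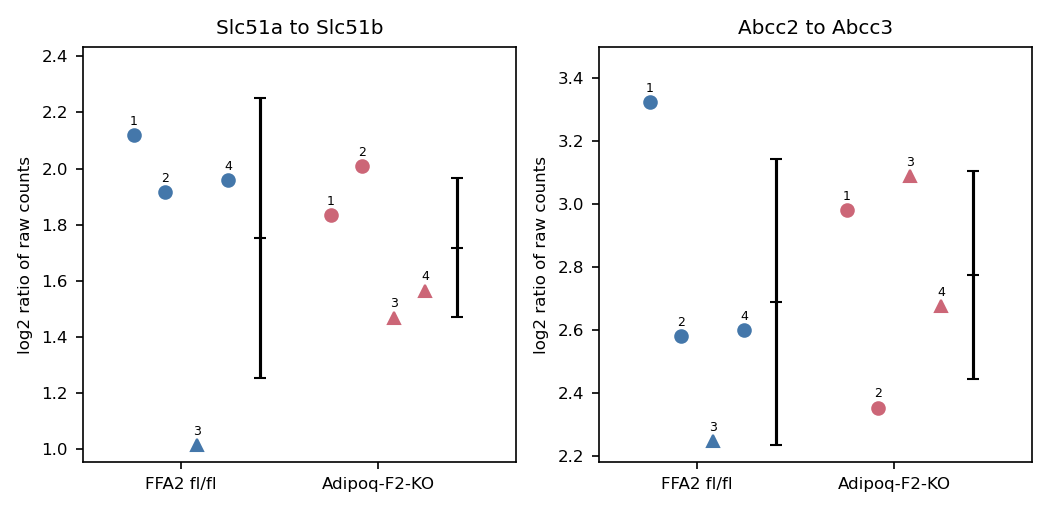
The log2 ratio of raw counts within each library is plotted for Slc51a to Slc51b (left) and Abcc2 to Abcc3 (right), with FFA2 fl/fl in blue, Adipoq-F2-KO in red, triangles for shallow libraries and bars for the mean and SD of 4 libraries. The genotypes overlap in both panels, and the 3 triangles are the lowest points of the left panel.

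Levels were compared between genes after division by the merged exon length, as normalized counts per kb averaged over the 8 libraries. Abcc2 stood at 1723, Slc51b at 1316, Slc51a at 926, Fabp6 at 421, Abcc3 at 383, Nr1h4 at 192, Slc10a2 at 37.6, Nr0b2 at 29.4 and Fgf15 at 9.64. Thus the basolateral carrier was at a high level where the apical carrier was low. Slc51b exceeded Slc51a in 8 of 8 libraries, Abcc3 exceeded Nr1h4 in 8 of 8, and Nr1h4 exceeded Slc10a2 in 8 of 8. Abcc2 exceeded Slc51b in 6 of 8. The mean of Fabp6 rested on the shallow libraries, and it exceeded Abcc3 in 3 of 8. Slc10a2 and Nr0b2, each higher in 4 of 8, were not separated.

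For 4 of the 9 genes the levels divided the shallow from the deep libraries. Both Slc10a2 and Slc51b, 2 of the 7 tested genes, were higher in all 3 shallow libraries than in all 5 deep ones, as were 6.86% of all tested genes, and the untested Fabp6 and Fgf15 showed the same order. Over the 8 libraries, Pearson's r of log2(normalized count + 1) was 0.98 between Fabp6 and Fgf15 and 0.95 between Slc10a2 and each of them, values that rest on the contrast of 3 libraries with 5 and share their depth. Slc51b followed Slc10a2, Fabp6 and Fgf15 with r of 0.82, 0.81 and 0.85. Both pumps ran the other way, Abcc2 with r of -0.78, -0.67 and -0.72 to Slc10a2, Fabp6 and Fgf15, and Abcc3 with r of -0.81, -0.65 and -0.65. Slc51a and Nr1h4 had r of 0.41 and 0.40 to Fabp6, and Nr0b2 had -0.33. Slc51a had r of 0.77 to its partner Slc51b and of -0.72 to Abcc2, although it did not divide the shallow from the deep libraries. Slc10a2, Fabp6 and Fgf15 thus had coefficients of 0.95 to 0.98 among themselves and of 0.40 to 0.51 with Nr1h4.

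Other markers moved with the same libraries. Of 6 adipocyte markers, 5 were also higher in every shallow than in every deep library. Only 2 of the 6 were tested, and 1 of these 2, Cfd, was among the 5, where 6.86% of all tested genes showed that order. The rest of the 5 failed the count filter, with as few as 12 counts over the 8 libraries. Raw counts of Adipoq, which encodes adiponectin, were 2, 3, 59 and 0 in FFA2 fl/fl 1 to 4 and 0, 3, 27 and 12 in Adipoq-F2-KO 1 to 4. The summed level of the 6 was 1499 to 1858 normalized counts in the deep and 1817 to 1888 in the shallow libraries, most of it from Lipe, which ranged from 1481 to 1849. The summed absorptive enterocyte markers also divided the libraries, at 639796 to 681008 in the deep and 685214 to 714274 in the shallow ones, and 2 of the 9, Fabp2 and Apoa4, did so singly. In the epithelial list 1 of 12 markers (Epcam) and in the macrophage list 1 of 6 (Adgre1) were higher in every shallow library. Among all tested genes 6.86% were, a share from which counts this small cannot be set apart. Smooth muscle markers summed to 292 to 3771 in the deep and 1848 to 22756 in the shallow libraries, with 0 of 10 genes separating them. Of 6 distal small intestine markers, among them Cubn, Nts and Pyy, none separated the shallow from the deep libraries, with sums of 22290 to 26462 and 12262 to 34850, and none of 8 proximal markers was higher in all shallow libraries. The proximal marker Rbp2, a retinol binding protein of enterocytes, was lower in all 3 shallow libraries (21936 to 29463) than in all 5 deep ones (31329 to 34477). It was the 1 such gene of 6 tested proximal markers, and 1128 of the 15986 tested genes showed that order. The part of depth, of enterocyte, adipose or muscle content and of position along the gut in the levels of Fabp6, Fgf15, Slc10a2 and Slc51b was not tested.

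**Figure D3:**
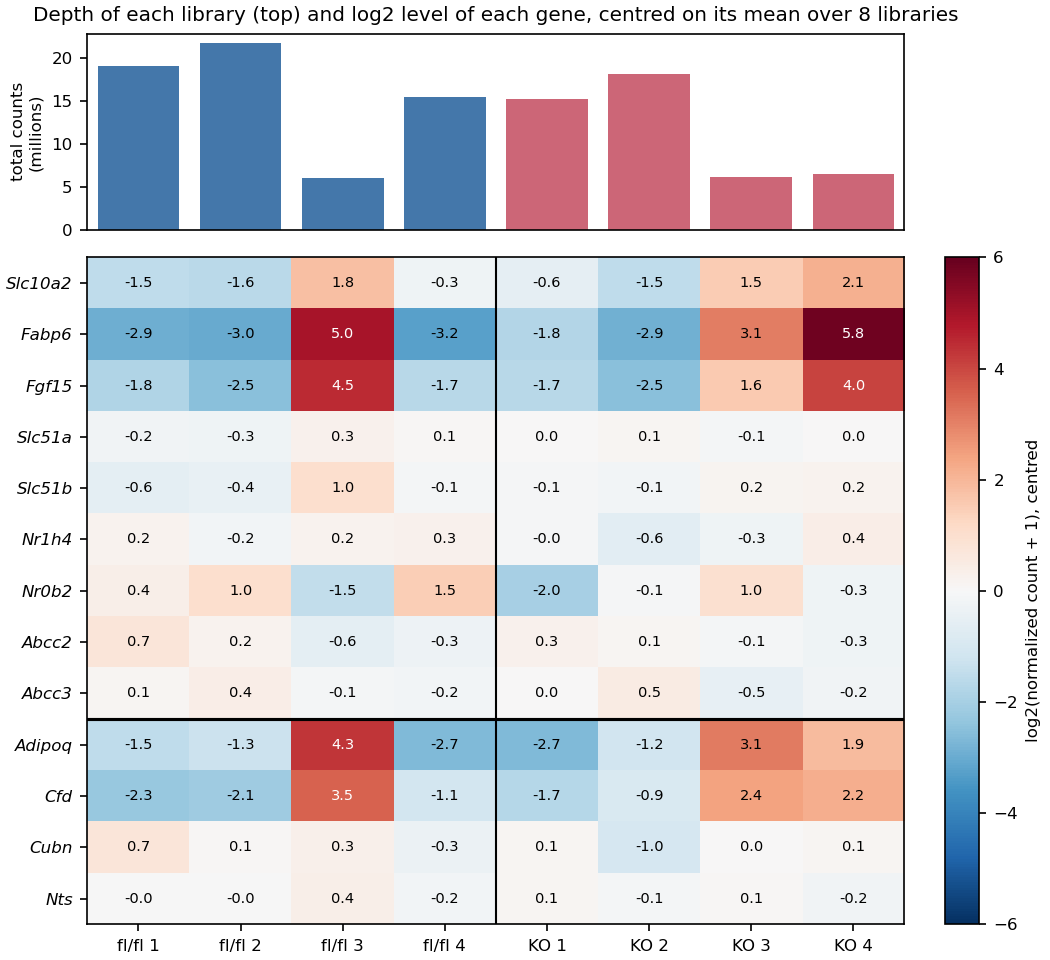
The bars give total counts for FFA2 fl/fl (fl/fl, blue) and Adipoq-F2-KO (KO, red) libraries 1 to 4, and the cells give log2(normalized count + 1) minus the gene's mean over the 8 libraries for the 9 genes and, under the line, for Adipoq and Cfd (adipocyte) and Cubn and Nts (distal intestine). Slc10a2, Fabp6 and Fgf15 are red in the 3 libraries under 10000000 counts, as are Adipoq and Cfd, while Slc51a, Cubn and Nts show no such division.

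The genes whose pattern was most like each of the 7 tested ones were sought among genes with a mean normalized count of at least 50, by Pearson's r over the 8 libraries. Slc10a2 was closest to Smc3 (r = 0.979), Usp47 and Tpr, and Slc51a to Rab28 (r = 0.975), Actb and Tgm2. Slc51b was closest to Gbp8 (r = 0.993), Calm2 and Ezr. Nr1h4 was closest to Tsga10 (r = 0.941), St3gal6 and Plxna2, and Nr0b2 to Edaradd (r = 0.988), Sbk1 and Fastkd1. Abcc2 was closest to Cdc23 (r = 0.979), Slc19a2 and Sh3gl2, and Abcc3 to Gsk3a (r = 0.975), Crym and Cdc42. The likeness is one of shape and not of size, since Usp47 varied over 0.44 on the log2 scale while Slc10a2 varied 13.8-fold.

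The wider pathway was described with lists of other genes. Of 10 other bile acid carriers, 6 were tested, and none passed at an adjusted or an unadjusted DESeq2 p below 0.05 (median log2 fold change -0.19). The 3 with the smallest p were Abcg2, an apical efflux pump (0.13 ± 0.10, SE), Slc10a1, best known as the hepatic uptake carrier (-0.41 ± 0.32), and Abcb1a, a drug efflux pump (-0.24 ± 0.21). Of 13 genes of bile acid synthesis and conjugation, 7 were tested, none passed after adjustment, and Acox2, a peroxisomal oxidase that shortens the bile acid side chain, had an unadjusted p below 0.05 in the lower direction. Acox2 had 904.5, 939.3, 449.6 and 567.3 normalized counts in FFA2 fl/fl 1 to 4 and 470.5, 604.5, 420.4 and 479.4 in Adipoq-F2-KO 1 to 4, overlapping ranges, with a log2 fold change of -0.54 ± 0.24 (SE, DESeq2 adjusted p = 0.9998). Cyp27a1, the sterol 27-hydroxylase, was at -0.36 ± 0.23 and Scp2, a sterol carrier, at 0.17 ± 0.17. Cyp7a1 and Cyp8b1, enzymes of the hepatic pathway, and the carrier Slco1a5 were listed at 0 counts in all 8 libraries. Hsd3b7, another enzyme of the pathway, was also listed at 0, but GENCODE tags it as overlapping another locus, where the counting may drop reads, so that its 0 is uncertain.

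Among 14 FXR partners and other receptors, 12 were tested and none passed after adjustment, with a median log2 fold change of -0.0027. Ppargc1a, a coactivator of nuclear receptors, had 2158, 2049, 2192 and 2196 normalized counts in FFA2 fl/fl 1 to 4 and 2807, 2715, 2385 and 2685 in Adipoq-F2-KO 1 to 4. All 4 Adipoq-F2-KO libraries lay above all 4 FFA2 fl/fl libraries, and the log2 fold change was 0.30 ± 0.08 (SE, unadjusted p = 0.000247, DESeq2 adjusted p = 0.232). Genotypes did not overlap in 2.12% of all tested genes, and Ppargc1a was named for its small p. Nr1i2, the pregnane X receptor, was at -0.34 ± 0.15 with overlapping genotypes and was lower in all 3 shallow than in all 5 deep libraries. The latter order held for 1128 of the 15986 tested genes. Hnf4a was at 0.19 ± 0.12.

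Of 8 other reported FXR targets, 7 were fitted and 6 were given a p, none of them below 0.05 adjusted or unadjusted by DESeq2, and the median log2 fold change of the 7 was -0.21. The gene without a p was Nos2, the inducible nitric oxide synthase, which had 195.1, 84.9, 4592 and 95.2 normalized counts in FFA2 fl/fl 1 to 4 and 673.4, 541.3, 961.0 and 494.4 in Adipoq-F2-KO 1 to 4. Its log2 fold change of -0.89 (SE 1.26) took its sign from FFA2 fl/fl 3, since the other 3 FFA2 fl/fl libraries lay below all 4 Adipoq-F2-KO libraries. Sdc1, a syndecan of the epithelial surface, was higher in all 4 Adipoq-F2-KO libraries (283.9 to 334.4) than in the FFA2 fl/fl libraries (269.8 to 283.0), with a log2 fold change of 0.19 ± 0.11 (DESeq2 adjusted p = 0.9998). These ranges nearly touched, and 2.12% of all tested genes had genotypes that did not overlap. Ang, an antimicrobial ribonuclease, was at -0.43 ± 0.24 and Mafg, a small MAF repressor, at -0.38 ± 0.22. In the lists for position along the gut, none of 6 distal and 6 tested proximal genes passed after adjustment. The distal gene Osr2 had an unadjusted DESeq2 p below 0.05 (log2 fold change 0.31 ± 0.14), and Cubn was at -0.36 ± 0.27. The proximal genes with the smallest p were Slc40a1 (0.62 ± 0.43), Fabp1 (0.13 ± 0.17) and Onecut2 (0.06 ± 0.19).

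**Figure D4:**
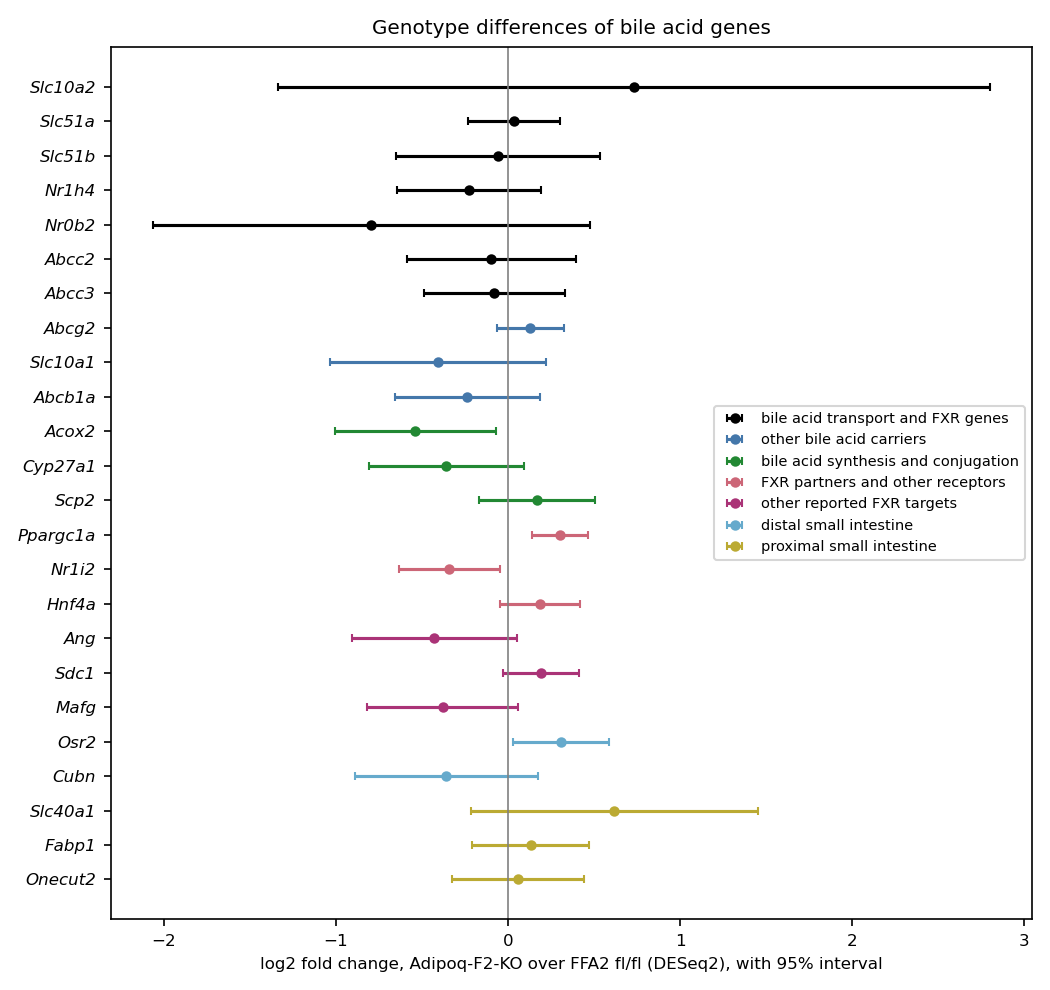
Points are DESeq2 log2 fold changes (Adipoq-F2-KO over FFA2 fl/fl, 4 libraries each) with 95% intervals for the 7 tested bile acid transport and FXR genes (black) and for the genes named from the 6 lists (colours). All 7 black intervals include 0, those of Slc10a2 and Nr0b2 being the widest, and 4 list genes, Acox2, Ppargc1a, Nr1i2 and Osr2, have intervals that leave out 0. The list genes shown are those with the smallest p, the 4 are 4 of 44 tested in the 6 lists, where 3.03% of all tested genes had an unadjusted p below 0.05, and none passed after adjustment.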

How the data were processed

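Per the methods of the study and the submitters' processing notes, the authors trimmed reads (75 bp, single end) with Trimmomatic, aligned them with STAR and counted them per gene with featureCounts, and the deposited values are raw counts per library. The labels name GRCm38 (mm10). The annotation release and the strand setting are not given in the sources used here. Symbols, positions and exon lengths were taken from GENCODE M21, which holds 52125 of the 56980 identifiers.

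The 15986 genes that reached 10 counts in 4 or more libraries were fitted with DESeq2 1.42.0 (R 4.3.3), genotype being the only term, and tested by two-sided Wald tests, adjusted after Benjamini and Hochberg. No adjusted p was given for 8 genes. Alternatives used edgeR 4.0.16, limma 3.58.1, other scalings and filters, a smooth muscle covariate, a depth term chosen after seeing the data, and fewer libraries. The scripts were tested on simulated data. With 1 library per mouse, the intervals cover the spread between 8 mice together with that of sampling, library preparation and counting. These parts cannot be told apart, and reads carried no molecular identifiers. A chi-square statistic of at least 5.04 per gene in the 12 pairs within a genotype found no duplicated library. The planned adjustment over 3 ratios was made over the 2 that could be tested.

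The 9 genes and the lists were chosen with earlier results of these data known. In each of 6 lists the 3 tested genes with the smallest unadjusted p were named, and for each tested member the 3 genes most like it, except that the value of 1 distal gene is left out. Sdc1 and Ppargc1a fall under this rule. Adipoq, Cfd, Lipe, Nts, Pyy, Fabp2, Apoa4, Epcam, Adgre1, Nos2, Rbp2 and the genes at 0 were named after their values were seen.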

Additional observations from a re-analysis of the deposited data

Results flagged for a closer look

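The highest or lowest library was compared with the others by Dixon's criterion in 62 groups of 4 libraries. The groups came from the 9 genes, the 18 list genes named by rule and 4 list genes added after their values were seen (Adipoq, Lipe, Nos2 and Rbp2). Chance alone meets the criterion in about 1 in 20 groups of independent, normally distributed values. The normalized counts were not logged and several of the genes moved together, so that this rate does not hold here. Dixon's criterion was met 9 times. The other list genes were not looked at. Slc10a2 in FFA2 fl/fl 3 was at 330.4 normalized counts, the others being at 30.0 to 78.2. Fabp6 in FFA2 fl/fl 3 was at 522.8, the others being at 0.774 to 1.21, and in Adipoq-F2-KO 4 it was at 941.9, the others being at 1.24 to 140.1. Fgf15 in FFA2 fl/fl 3 was at 125.5, the others being at 0 to 0.774. All 4 of these values came from shallow libraries. Among the 18 list genes, Cubn in Adipoq-F2-KO 2 was low at 9510, the others being at 19921 to 21252, and Slc40a1 in FFA2 fl/fl 4 was low at 13.2, the others being at 32.1 to 35.5. Both of these libraries were deep. Of the 4 added genes, 3 met it in FFA2 fl/fl 3, where Adipoq was at 123.4 (others 0 to 1.58), Nos2 at 4592 (others 84.9 to 195.1) and Rbp2 low at 21936 (others 31329 to 32882), and they had been added with those values known.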

How the results depend on the processing

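None of the 7 tested genes passed after adjustment under the 18 alternatives wherever an adjusted p was given, which it was not for Nr0b2 without FFA2 fl/fl 3 or without Adipoq-F2-KO 3. Of 125 fits of these genes, 110 kept their direction and 15 turned it, and Slc10a2, Nr1h4 and Nr0b2 kept 1 direction throughout. Slc51a turned to -0.035 (log2) with size factors from epithelial genes, which moved the median of all genes to -0.10. Slc51b turned to 0.12 with limma-voom, to 0.087 with the replicate block and to 0.26 in the 5 deep libraries, Abcc2 to 0.082 and Abcc3 to 0.0079 with the depth term, and Abcc3 to 0.13 in the 5 deep libraries. Leaving out 1 library at a time gave -0.045 to 0.14 for Slc51a, -0.23 to 0.42 for Slc51b, -0.27 to 0.18 for Abcc2, -0.29 to 0.052 for Abcc3, -0.28 to 0.089 for the Slc51a to Slc51b ratio and -0.060 to 0.30 for the Abcc2 to Abcc3 ratio. The number of genes passing among all tested, 6, was 2 with edgeR, 1 with limma-voom, 3 without the filter, 3 with the depth term and 77 in the 5 deep libraries. It ranged from 2 to 104 when 1 library was left out, being 104 without FFA2 fl/fl 3, 21 without FFA2 fl/fl 2, 2 without FFA2 fl/fl 1 and 3 without FFA2 fl/fl 4 or Adipoq-F2-KO 4. The sample labels do not say whether same-numbered mice are paired. After centring within genotype, same-numbered libraries had correlations of 0.54, 0.29, 0.01 and -0.42, and the other pairs had -0.47 to 0.52. Such correlations also carry depth and tissue content, so they cannot decide whether the numbers pair the mice. A replicate block gave 11 genes. The cause of these changes was not tested. Nr0b2 was left out by the minimum of 50 counts. Fabp6 and Fgf15, at 5 counts or fewer in each of the 5 deep libraries, could be fitted only without the filter.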
